A study of Mus musculus and Rattus norvegicus with 37 samples.

Results

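Carboxylesterases are serine hydrolases that cut ester and amide bonds. In the liver they sit mainly in the lumen of the endoplasmic reticulum, where they break down drugs and other foreign esters and act on neutral lipids, and some of them help to mobilize stored triglyceride for secretion in lipoproteins. Rodents carry an expanded set of Ces1, Ces2 and Ces3 genes that arose by tandem duplication. Described here are 10 of them, called members: Ces1b, Ces1c, Ces1d, Ces1e, Ces1f, Ces1g, Ces2a, Ces2c, Ces2e and Ces3a. Members were taken by their symbol, and they were chosen by their measured responses in these same livers (LNA29 against saline, Zucker fatty against lean, BT2 against vehicle, with Ces1d included for its lower values with BT2). Values in those 4 comparisons are therefore a description with no test of the members. The mouse tables list all 10 among 47929 named entries, and the rat tables list 5 of them (Ces1d, Ces1f, Ces2a, Ces2c and Ces2e) among 28026. A symbol shared by mouse and rat was taken as a name only, since rodent carboxylesterase symbols need not mark the same ancestral gene.

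The values come from RNA-seq of 37 livers, 21 of female mice and 16 of male rats. LNA29 is a pair of locked nucleic acid inhibitors, 1 against miR-29a and 1 against miR-29b/c, given subcutaneously in a single dose of 20 mg/kg each at ZT3 (zeitgeber time 3), with fed livers taken on day 7. The WT/Floxed group held LNA29 mice (n = 8, of which 4 WT and 4 floxed) and saline mice (n = 5, of which 3 WT and 2 floxed), after the authors had left out 1 saline floxed mouse. Mice labelled L-Sirt1 KO, a liver-specific Sirt1 deletion, received LNA29 (n = 4) or saline (n = 4). The labels give C57BL/6J as the strain of all mice and a single tissue, liver. The floxed and L-Sirt1 KO mice were 15 to 20 weeks old. The WT mice of the same study's acute experiment were 9 to 11 weeks old, and the age of the sequenced WT mice was not given in the sources used here. The rats were Zucker fatty rats (ZFR, which lack a working leptin receptor) and Zucker lean rats (ZLR) aged 5.5 months (n = 4 each), and ZFR aged 3 months that received BT2, which blocks the kinase that restrains breakdown of branched-chain amino acids, intraperitoneally at 20 mg/kg daily for 1 week (n = 4) or its DMSO vehicle (n = 4).

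Every value below is a DESeq2-normalized read count of a gene, made by the authors separately for each of the 4 tables. For an estimate of depth, the most frequent value above 0 in each library was taken as 1 read. This gave 42.6 to 78 M reads in mice and 0.188 to 58.5 M in rats. Among the rats, ZLR replicates 3 and 4 and vehicle replicate 4 had under 0.2 M reads. Sirt1 did not separate the labels, with 492.7 to 699.1 normalized counts in WT/Floxed mice and 534.6 to 616.5 in mice labelled L-Sirt1 KO. A deletion of 1 exon need not lower a count per gene. The paper also measured hepatic Sirt1 in both groups by RT-qPCR, which is not part of the values used here. All 6 hepatocyte markers were listed in every table. The summed level of the kidney proximal tubule list, another tissue rich in carboxylesterases, did not pass 80.2 normalized counts in any mouse, with Kap at 0 in all of them. In whole livers, fewer cells of a type and less RNA per cell cannot be told apart.

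LNA29 targets a miRNA family whose 3 mature members share 1 seed (bases 2 to 8, in capitals), shown here because the match to that seed is what a direct target would carry. The sequences are from RefSeq on GRCm38.p6, where miR-29a-3p lies on chromosome 6 (31062673 to 31062694, minus strand), miR-29b-3p on chromosomes 1 (195037091 to 195037113, plus strand) and 6 (31063025 to 31063047, minus strand), and miR-29c-3p on chromosome 1 (195037600 to 195037621, plus strand).
mmu-miR-29a-3p: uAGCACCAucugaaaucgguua
mmu-miR-29b-3p: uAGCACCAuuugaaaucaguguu
mmu-miR-29c-3p: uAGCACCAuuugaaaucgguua

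The match to this seed in a transcript reads TGGTGCT. It was found in the annotated 3′ untranslated region of 0 of the 10 mouse members, against 2442 of the 20673 genes with such a region, or 11.8%. In the 1 transcript read per gene, this region was 150 to 310 bases long in all members but Ces1g (536) and Ces2e (958). The 11.8% is over genes with regions of any length, and length was not matched, so the member count cannot be read as a shortage of sites. The absence of these 7 letters says nothing of other kinds of site.

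The 10 mouse members lie in 2 gene clusters on chromosome 8 of GRCm38. The 6 Ces1 members are on the minus strand between 93020214 and 93535830, together with Ces1a, Ces1h and Ces5a. Ces2a, Ces2c, Ces2e and Ces3a are on the plus strand between 104734003 and 105150109, together with 6 further carboxylesterases. Coding sequences were 74.5% (Ces1b and Ces1f) to 91.2% (Ces1b and Ces1c) identical among the Ces1 members and 83% to 84% among the Ces2 members, and 62.2% to 67.3% between subfamilies. To show how near these genes are to one another, 30 coding bases around the codon of the catalytic serine are printed for the members that the results turn on, with capitals where a base differs from Ces1d.
Ces1d: atctttggagagtcagcaggaggtttcagt
Ces1f: atctttggagagtcagcaggaggttAcagt
Ces2a: atAtttggagTCtcagcaggaggtACAagt
Ces2c: atTtttggCgagtcTgcaggTggCACAagt
Ces2e: atTtttggagagtcagcaggTggCACAagt
Ces3a: atcttCggTAaCtcTgcTggaggCAtTaTt

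On chromosome 8, Ces1d spans 93166068 to 93197838 and Ces1f 93256236 to 93279747, and Ces2a spans 104734003 to 104741634, Ces2c 104847068 to 104854483, Ces2e 104926260 to 104934672 and Ces3a 105048601 to 105058413. Over the whole coding sequence Ces1f was 78.5% identical to Ces1d. In the printed coding stretch Ces1f differed from it at 1 base, Ces2a and Ces2e at 6, Ces2c at 8 and Ces3a at 10. Reads were 100 bases long, so stretches of 100 bases found in another gene too could be counted for either. Such stretches made up 16% of Ces2c (299 of 1871, shared with Ces2d-ps, Gm6831 and Gm8798), 10.7% of Ces2a (shared with Gm7208) and 9.09% of Ces3a (shared with Ces3b). They made up 1.39% of Ces1c and 1.29% of Ces1b, which shared them with each other, and 0% of Ces1d, Ces1e, Ces1f, Ces1g and Ces2e. The pseudogene Ces2d-ps itself held 10.4 to 67.5 normalized counts in the 21 mice. The values of Ces1b, Ces2c, Ces2a and Ces3a are uncertain for this reason, to an extent that was not estimated. A share of a gene's own stretches does not limit it where the other gene has far more reads. Over the 21 mice, Ces1c had a median of 260159 normalized counts and Ces1b 7472.3. Ces1d overlaps the gene Gm45909 and Ces3a the gene Gm45724, and the strand setting of the counting was not given in the sources used here.

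Together the 10 members took 0.672% to 0.889% of all normalized counts in a mouse liver. Ces1c, the secreted esterase of mouse plasma, made up 51.9% to 62.4% of their sum. Per kilobase of exon, the saline WT/Floxed mice (n = 5) had a median level of 110262.8 normalized counts for Ces1c (98829 to 122355). Ces3a followed at 21368.6 (21051.1 to 24874.7) and Ces1d, a triacylglycerol hydrolase of the endoplasmic reticulum, at 19202.7 (17753 to 29333.9). The ranges of Ces3a and Ces1d overlapped. Ces3a was the higher in 3 of 5 mice, all of them WT, and Ces1d in the 2 floxed mice.

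Below them, per kilobase, came Ces1g at a median of 9696.6, Ces2a at 8351.7 and Ces1f at 7256.9, and no mouse reversed an order among these 3. Ces2e had 3905.6, Ces1e (egasyn, which holds β-glucuronidase in the endoplasmic reticulum) 3726.3 and Ces1b 3533.5, and the range of Ces1b (3196.5 to 3981.2) overlapped both others. Ces2c was the lowest member at 681 (503 to 1237.1). With the longest transcript as the length in place of all exons, the medians were 12377.4 for Ces1f, 10051.9 for Ces2a and 9696.6 for Ces1g, so the order of these turned round.

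**Figure D1:**
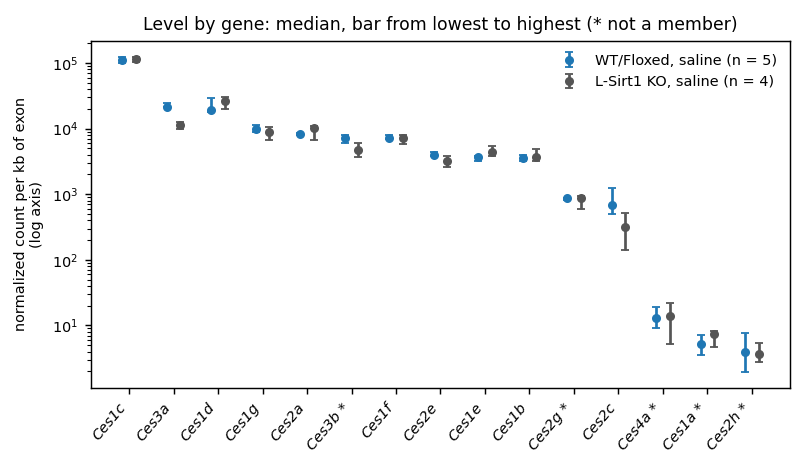
Level of each carboxylesterase in saline mice of both genotype groups, in normalized counts per kilobase of exon on a log axis, with the median as a point and a bar from the lowest to the highest mouse. Genes marked * are not members. Ces1c stands above all others and Ces2c is the lowest member, and both genotype tables were normalized separately.

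In mice labelled L-Sirt1 KO the saline order per kilobase also began with Ces1c (median 113456.5), followed by Ces1d (26654.3) and Ces3a (11191.9). There the lowest Ces1d mouse (20063.7) was above the highest Ces3a mouse (12558.4). Per kilobase, Ces1d was above Ces3a in the 2 floxed saline mice of the WT/Floxed group too. Ces3a itself had 26289.7, 28755.3, 30047.1 and 32990.9 normalized counts in the saline mice labelled L-Sirt1 KO and 55301.2 to 65345.8 in the saline WT/Floxed mice. Over all libraries, the L-Sirt1 KO mean of Ces3a was 0.555 of its WT/Floxed mean, and for Ces2c this ratio was 0.571. For the other 8 members this ratio ran from 0.843 (Ces2e) to 1.25 (Ces1e), and the median over 15601 genes was 1.02. The WT/Floxed means join WT and floxed mice, while the controls from the litters of the L-Sirt1 KO mice were floxed. Ces2c had a mean of 762.5 in floxed and 1383.4 in WT mice, and Ces3a 53240.9 and 57778. With saline, Ces2c had 1155.9 to 1178.6 in floxed mice and 320.8 to 1191.2 in mice labelled L-Sirt1 KO. With LNA29 it had 310.3 to 744.1 and 250.6 to 853.8, so both pairs overlapped. The tables were normalized separately, so these levels stand side by side with no test.

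In the livers of WT/Floxed mice given LNA29, Ces2c, which in mice hydrolyses acylglycerols and drug esters, and Ces2e were lower than with saline. Ces2c had 1155.9, 1178.6, 1565.6, 1567.5 and 2842.8 normalized counts in the saline mice and 310.3 to 1436.9 (median 604.8) in the LNA29 mice. The groups overlapped, because LNA29 replicates 1 and 4, both WT, lay above the lowest saline mice, which were floxed. The LNA29 mean of 744 ± 400 (SD, n = 8) was 0.447 times the saline mean of 1662 ± 690 (SD, n = 5), and the log2 fold change was -1.25 (SE 0.33).

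Within each background the Ces2c values did not overlap. The 4 WT mice with LNA29 had 456.7, 547.4, 1267 and 1436.9 normalized counts and the 3 WT mice with saline 1565.6 or more. The 4 floxed mice with LNA29 had 310.3, 524, 662.3 and 744.1 and both floxed mice with saline 1155.9 or more.

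Ces2e had 10424.8, 10451.4, 10541.3, 10632.6 and 11692.2 normalized counts with saline and 6620.3 to 10033 (median 8864.4) with LNA29. Every LNA29 mouse was below every saline mouse. The LNA29 mean was 8518 ± 1117 (SD, n = 8) and the saline mean 10748 ± 534 (SD, n = 5), and on the log2 scale they differed by -0.35 (SE 0.09).

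Ces2a showed a narrow saline group of 19145.1 to 20160.2 normalized counts and a wide LNA29 group of 13609.6 to 23252.1. The 4 WT mice with LNA29 had 13609.6, 13640.9, 17143.5 and 18586.4, all below the WT saline mice. The 4 floxed mice with LNA29 had 19452.4, 20221.9, 20577.1 and 23252.1, of which 3 were above both floxed saline mice (19347.6 and 19701.7). Averaged over both backgrounds, the log2 fold change was -0.12 (SE 0.12).

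Of the Ces1 members, Ces1f, a lipid hydrolase, had 22958.4 to 26568.4 normalized counts with saline and 19383.5 to 26097.5 with LNA29, a log2 fold change of -0.20 (SE 0.08) with overlapping groups. Ces1g, whose loss in mice is known to raise blood and liver lipids, differed by -0.10 (SE 0.07) and Ces1c by -0.02 (SE 0.08). Ces1b (0.08, SE 0.10), Ces1d (0.13, SE 0.17) and Ces1e (0.14, SE 0.09) had slightly higher values. Ces3a differed by -0.10 (SE 0.09). All log2 fold changes are on the log2(normalized count + 1) scale.

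By the study's 4 criteria (p under 0.05, adjusted p under 0.2, mean above 50 and fold change above 1.2, with limma), 2 of the 10 members were called, Ces2c and Ces2e, both lower, and 8 were not. Of all 15811 genes tested, 688 were called, or 4.35%. The median log2 fold change of the members was -0.10 and that of all genes 0.00. Since this comparison was among those that chose the members, nothing is read from the count. Of the marker lists, 1 hepatocyte marker was called higher (Apoa1, 0.51 on the log2 scale) and 1 lower, and 1 endothelial marker lower (Lyve1, -0.51), while summed hepatocyte markers overlapped between the groups. Of the 6 macrophage markers 5 had lower values and 1 higher, with none called. All 5 red blood cell and all 5 pancreatic acinar markers had lower values and all 5 cholangiocyte markers higher values, none called. The part of these shifts in the values of Ces2c and Ces2e was not tested. The call of Ces2c was lost without saline replicate 4, the mouse at 2842.8, where its log2 fold change was -1.03 and 1 member was called.

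**Figure D2:**
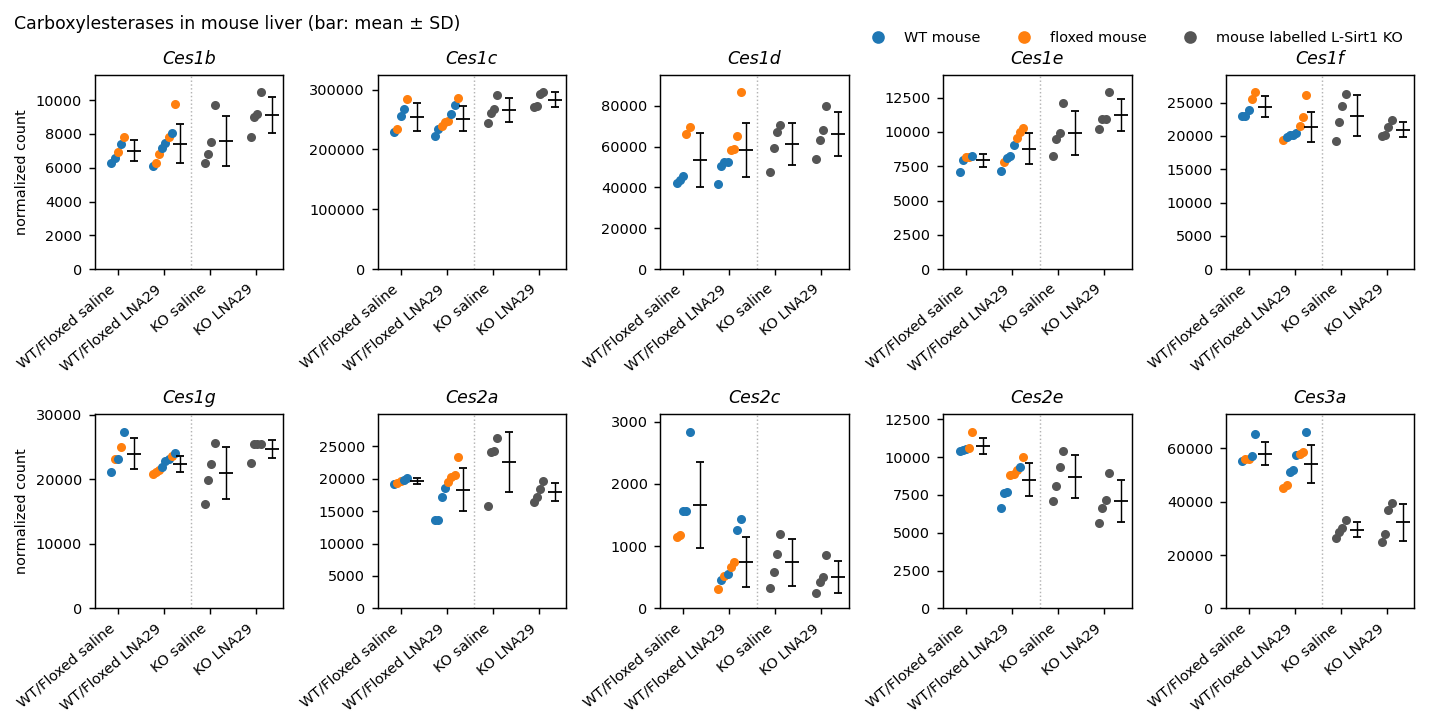
Normalized counts of the 10 members in each mouse liver, with a bar for the mean ± SD of each group and axes that start at 0 and differ by gene. Colours mark WT, floxed and L-Sirt1 KO mice, and a dotted line parts the 2 separately normalized tables. Ces2e shows no overlap of LNA29 and saline in WT/Floxed mice, and floxed mice lie above WT mice for Ces1d.

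Among the mice labelled L-Sirt1 KO, LNA29 gave 0 called members of 10, against 297 of 15885 genes (1.87%). At an unadjusted p under 0.05 in limma, 0 members and 1778 genes (11.2%) were counted. Ces2c had 250.6, 430.4, 499.9 and 853.8 normalized counts with LNA29 and 320.8, 582.6, 882.6 and 1191.2 with saline, a log2 fold change of -0.52 (SE 0.44). The groups overlapped. Ces2e had 5658.7, 6606.6, 7141.8 and 8945.7 with LNA29 and 7084.6, 8067.2, 9341.3 and 10380.7 with saline, a log2 fold change of -0.30 (SE 0.16), again with overlap.

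In the same mice, Ces2a had 16408.2 to 19611.5 normalized counts with LNA29, and with saline 15782 in replicate 4 and 24144.1, 24283.6 and 26214.3 in the others, a log2 fold change of -0.31 (SE 0.15). Without saline replicate 4 it was -0.48 and Ces2a met the criteria. Ces1b (0.28, SE 0.14) and Ces1g (0.25, SE 0.13) had the highest log2 fold changes of any member. The other members lay between -0.13 (Ces1f) and 0.18 (Ces1e), and the median of the 10 was 0.10. Of the marker lists, 1 endothelial marker (Lyve1, -1.17 on the log2 scale) and 1 macrophage marker (Clec4f, -0.29) were called lower, both with no overlap. In all, 5 of the 6 macrophage markers had lower values and 1 higher. All 5 red blood cell markers had lower values, none called. The part of these shifts in the values of the members was not tested.

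The difference of the LNA29 response between the genotypes was 0.35 (SE 0.14, log2 scale) for Ces1g, from -0.10 in WT/Floxed mice to 0.25 in mice labelled L-Sirt1 KO. For Ces2c it was 0.72 (SE 0.58) and for Ces2e 0.04 (SE 0.18). None of the 10 members passed an adjusted p of 0.2 in limma's test of this difference, and 7 of 15601 genes did (0.0449%). At an unadjusted p under 0.05, 1 member (Ces1g) and 1426 genes (9.14%) did. Ces1g passed when KO saline replicate 3 was left out, with a difference of 0.45. The difference of the response between floxed and WT mice, added after the values had been seen, was largest for Ces2a at 0.43 (SE 0.17). Here limma called 0 of 10 members at an adjusted p under 0.2, against 1 of 15811 genes (0.00632%). At an unadjusted p under 0.05 it counted 1 member and 1395 genes (8.82%). Both response differences are made of the LNA29 values that chose the members. They are therefore a description, and nothing is read from these counts.

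The comparison of floxed with WT mice was not among those that chose the members, and it is therefore given with tests. It rests on the same WT/Floxed livers, though, and the members were chosen with earlier results of these data known. Here Ces1d was the member that separated the mice. Ces1d had 58391.5, 59056.6, 64979.1, 66322.5, 69491.9 and 86619.4 normalized counts in the 6 floxed mice and 41867.8 to 52539.1 in the 7 WT mice. Every floxed mouse was above every WT mouse, with LNA29 as with saline. The mean was 67477 ± 10310 (SD, n = 6) against 46916 ± 4728 (SD, n = 7). With treatment in the model, the log2 fold change was 0.51 (SE 0.10, 95% interval 0.32 to 0.70, limma adjusted p = 0.0138). An exact two-sided permutation of the background labels within each treatment gave p = 0.00143, the smallest its 700 arrangements allow. In LNA29 mice alone the log2 fold change was 0.44 and the call was lost (limma adjusted p = 0.312), and in saline mice alone it was 0.63 (limma adjusted p = 0.0261).

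Ces2c was lower in floxed mice, at 762.5 ± 346 (SD, n = 6) against 1383 ± 793 (SD, n = 7), or -0.66 on the log2 scale (SE 0.29, limma adjusted p = 0.17), and met the study's criteria. Its groups overlapped and the exact permutation p was 0.0929. The log2 fold change was -0.63 in LNA29 mice alone, with no call (limma adjusted p = 0.606), and -0.71 in saline mice alone, with a call (limma adjusted p = 0.136). The call was lost in 8 of the 13 fits that each left out 1 mouse. These fits left out LNA29 replicates 1, 3, 4, 6 or 8 or saline replicates 2, 4 or 5, and their log2 fold changes ran from -0.72 to -0.50.

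Ces2a was higher in floxed mice by 0.26 on the log2 scale (SE 0.10, limma adjusted p = 0.117, exact permutation p = 0.02), just short of a fold change of 1.2. This difference was 0.42 in LNA29 mice alone (limma adjusted p = 0.25) and -0.01 in saline mice alone (limma adjusted p = 0.946). With 1 mouse left out at a time, Ces2a was called 7 times in 13 (LNA29 replicate 1 or 4, or any of the 5 saline mice), at 0.27 to 0.30. Ces1f differed by 0.15 (limma adjusted p = 0.14, exact permutation p = 0.0129) and Ces2e by 0.19 (limma adjusted p = 0.13, exact permutation p = 0.0371), and both missed that fold change. The remaining 5 members differed by -0.11 (Ces3a, limma adjusted p = 0.447) to 0.15 (Ces1e, limma adjusted p = 0.229). Thus 2 of 10 members were called, 1 in each direction, against 2331 of 15811 genes (14.7%). These 14 exact permutation tests (10 members and 4 further carboxylesterases) are not adjusted for their number. Cell type markers differed between these mice too. Of the 6 hepatocyte markers, Ttr was called higher (0.28 on the log2 scale) and Tat (-0.30) and Cps1 (-0.33) lower, and their summed level was 4418829.1 to 7476828.2 normalized counts in floxed and 6042085.7 to 7274978.2 in WT mice. All 5 red blood cell markers had higher values in floxed mice, none called, with a sum of 38485.5 to 103169.7 against 31696.2 to 55804.9. All 5 pancreatic acinar markers had lower values, none called, with a sum of 0 to 2.55 against 2.99 to 757.6, and Cela3b and Pnlip were at 0 in every floxed mouse. No marker of the other lists was called. The part of these shifts in the values of Ces1d and Ces2c was not tested. Floxed and WT mice may differ in age and litter too, which cannot be told apart from the floxed allele.

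**Figure D3:**
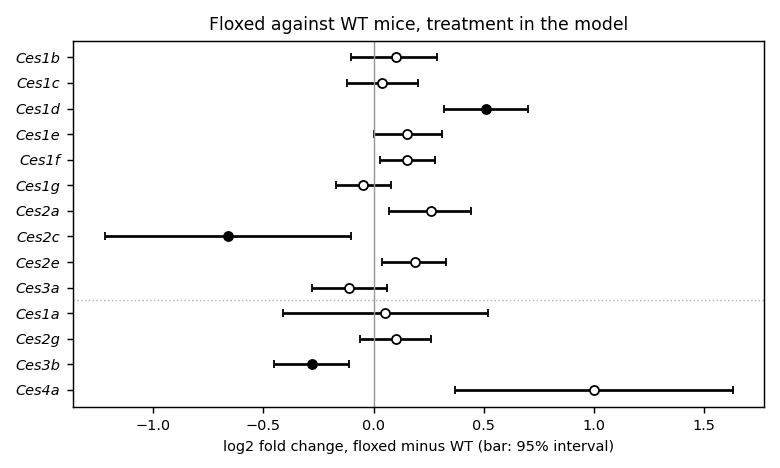
Log2 fold change of floxed over WT mice for the 10 members and, under the dotted line, the 4 further carboxylesterases tested, with bars for the 95% interval and treatment in the model. Filled points met the study's 4 criteria. Ces1d lies at 0.51, the highest of the members, and Ces2c at -0.66, the lowest.

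In rat liver, Ces1d and Ces1f had lower values in ZFR than in ZLR, without overlap. Ces1d had 77.7, 287.8, 123.2 and 139.9 normalized counts in ZFR and 966.5, 665, 525.6 and 904 in ZLR. Every fatty rat was below every lean rat. The mean was 157.2 ± 91 (SD, n = 4) against 765 ± 206 (SD, n = 4), a ratio of 0.205 and -2.40 on the log2 scale (SE 0.36).

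Ces1f had 1073.5, 1427.3, 1200.5 and 1039.5 normalized counts in ZFR and 2959.8, 3079.3, 2794.3 and 2398.3 in ZLR, again without overlap. The mean was 1185 ± 176 (SD, n = 4) against 2808 ± 297 (SD, n = 4), a ratio of 0.422 and -1.25 on the log2 scale (SE 0.12). Without the shallow ZLR replicates 3 and 4, the log2 fold changes were -2.51 for Ces1d and -1.36 for Ces1f, and both were still called.

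The 3 Ces2 members were at low counts in rats. Ces2a had 46 to 82.5 normalized counts in ZFR and 52.7 to 143.4 in ZLR, a log2 fold change of -0.49 (SE 0.30). Ces2c had 42.7, 64, 51.1 and 40.1 in ZFR and 37.1, 16.4, 0 and 0 in ZLR. The zeros are ZLR replicates 3 and 4, where 1 read was worth 10.5 and 10.4 normalized counts, so a count of 0 allows up to 31.5 and 31.2. The fitted log2 fold change of Ces2c, 3.29 (SE 1.13), was 0.95 without these libraries. Ces2e had 39.7 to 101.1 in ZFR and 20.9 to 76.4 in ZLR, a log2 fold change of 0.87 (SE 0.48) that was 0.02 without them.

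By limma at an adjusted p under 0.05, Ces1d and Ces1f were called of the 5 members, against 367 of 8633 genes (4.25%). The median log2 fold change of the 5 members was -0.49 and that of all genes 0.07. Without ZLR replicate 1, Ces2c was called as well, at 4.26, with only 1 ZLR library above 0 left. Cell type markers moved beside these values. Of the 6 hepatocyte markers 3 were called, all lower in ZFR, and their summed level was 174494.3 to 266360.2 in ZFR and 221600.5 to 285747.4 in ZLR. Of the 5 stellate cell markers tested, 3 had higher and 2 lower values and 0 were called, with a sum of 188.5 to 290 against 121.1 to 190.1. Of the 5 endothelial markers tested, 2 had higher and 3 lower values. Stab2 among them was called higher (1.16 on the log2 scale), with no overlap. None of the 6 hepatocyte markers was at 0, and the part of these shifts in the values of Ces1d and Ces1f was not tested.

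Between ZFR given BT2 and ZFR given vehicle, Ces1d again had the largest difference of the members, in values that chose it. It had 140.4, 91.6, 59.3 and 74.9 normalized counts with BT2 and 160.4, 354, 270.7 and 196.1 with vehicle. Every BT2 rat was below every vehicle rat. The mean was 91.6 ± 35.1 (SD, n = 4) against 245 ± 85.8 (SD, n = 4), a ratio of 0.373 and -1.42 on the log2 scale (SE 0.30). Without the shallow vehicle replicate 4 it was -1.50.

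Ces1f had 2127.4, 2110.2, 1640.5 and 1301.6 normalized counts with BT2 and 1113.2, 1933.3, 1167.2 and 1427.4 with vehicle, a log2 fold change of 0.35 (SE 0.20) in overlapping groups. Ces2e had 96.1, 112.1, 255.7 and 233.9 with BT2 and 64.6, 140.8, 127.4 and 92.9 with vehicle (0.64, SE 0.35). Ces2a (-0.30) and Ces2c (0.16) overlapped between groups as well. At an adjusted p under 0.05, limma called 0 of 5 members and 0 of 8405 genes (0%), while 1 member (Ces1d) and 332 genes (3.95%) had an unadjusted p under 0.05. The ages of the 2 rat experiments differed and their tables were normalized separately, so their levels are not compared.

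**Figure D4:**
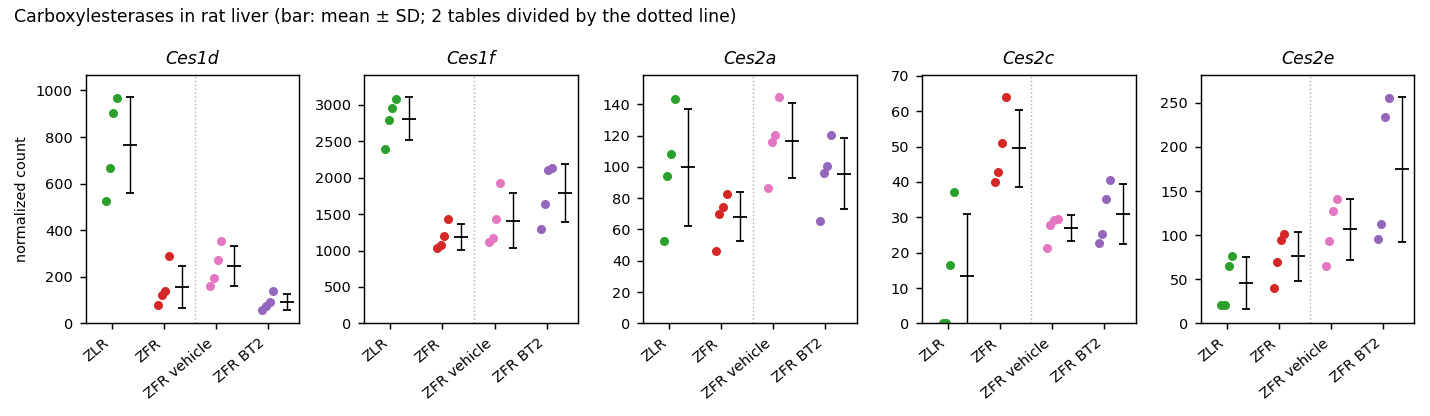
Normalized counts of the 5 members listed in rats, for ZLR, ZFR, ZFR with vehicle and ZFR with BT2 (n = 4 each), with a bar for the mean ± SD (cut at 0 for Ces2c in ZLR) and axes from 0 that differ by gene. Ces1d is lower in ZFR than in ZLR and lower with BT2 than with vehicle, with no overlap in either pair.

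**Figure D5:**
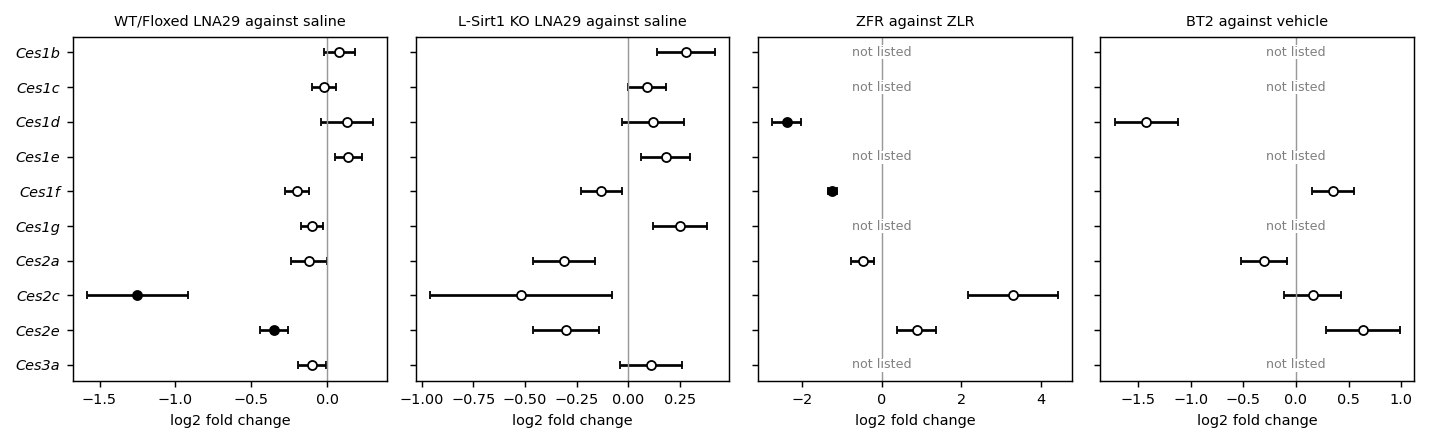
Log2 fold change of each member in the 4 comparisons that chose the members, with bars for the SE, filled points for genes called and an axis range of its own in each panel. Ces2c and Ces2e are called in WT/Floxed mice, no member in mice labelled L-Sirt1 KO, Ces1d and Ces1f in ZFR against ZLR, and no member with BT2.

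The carboxylesterases outside the 10 members are those left when members were chosen by their responses in the 4 comparisons above. They are therefore not an unselected set in those comparisons. The mouse tables list 9 of them, of which 4 reached a mean of 10 normalized counts (Ces1a, Ces2g, Ces3b and Ces4a), and the rat tables list 7, of which 5 did (Ces2g, Ces2h, Ces2i, Ces2j and Ces4a). None was called in the 4 comparisons above. Ces2g, in the same cluster as Ces2e, had 2648 ± 331 (SD, n = 8) normalized counts in LNA29 mice of the WT/Floxed group and 3076 ± 82.4 (SD, n = 5) in the saline mice (log2 fold change -0.23, limma adjusted p = 0.275). In rats, Ces2h had a mean of 63.4 with BT2 and 97.4 with vehicle (-0.64, limma adjusted p = 0.898), with no overlap. Ces4a did not overlap either and went the other way, with 27.2 to 50.9 against 0 to 24.2 (1.75, limma adjusted p = 0.898). Its 0 is the shallow vehicle replicate 4, where 1 read was worth 10.3 normalized counts. How many of all genes had no overlap was not counted.

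In floxed against WT mice, Ces3b, the neighbour of Ces3a, was called lower, at 14945 ± 1092 (SD, n = 6) against 18420.4 ± 2414 (SD, n = 7), which is -0.28 on the log2 scale (SE 0.08, limma adjusted p = 0.0637, exact permutation p = 0.0143). The call was lost without LNA29 replicate 3, 4 or 7. Ces4a had 62.3 ± 21.1 (SD, n = 6) against 32.3 ± 20.1 (SD, n = 7), which is 1.00 on the log2 scale (SE 0.32, limma adjusted p = 0.0774, exact permutation p = 0.0186), with a mean too low for a call.

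Other esterases and neutral lipid hydrolases, the enzymes with related substrates, were measured for 15 genes. None was called with LNA29 in WT/Floxed mice (against 4.35% of all genes), with LNA29 in mice labelled L-Sirt1 KO (1.87%) or with BT2 (0%). In ZFR, 1 of the 15 was called higher and 2 lower, against 4.25% of all genes called. The highest was Pnpla3, a lipid droplet protein known for its link to fatty liver, at 1604 ± 174 (SD, n = 4) against 102 ± 25.9 (SD, n = 4) in ZLR (log2 fold change 4.00, limma adjusted p = 6.49e-06). In floxed mice, 3 of the 15 were called lower, against 14.7% of all genes called, led by Nceh1, a cholesteryl ester hydrolase (-0.62, limma adjusted p = 0.0323).

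Of the nuclear receptors and regulators of drug-metabolizing and lipid genes, LNA29 gave 0 of 8 called in WT/Floxed mice, against 4.35% of all genes, and 0 of 8 in L-Sirt1 KO mice, against 1.87%. With BT2 0 of 7 were called, against 0%. In ZFR 1 of 7 was called, against 4.25%, and in floxed mice 1 of 8, against 14.7%. Nr1i3 (CAR, a receptor that senses foreign compounds) was lower in ZFR, at 10.6 ± 3.56 (SD, n = 4) against 35.6 ± 12.9 (SD, n = 4) normalized counts (log2 fold change -1.63, limma adjusted p = 0.0465), and Ppara, the fatty acid receptor, was lower in floxed mice (-0.37, limma adjusted p = 0.106). With LNA29, WT/Floxed mice had 1 called higher and 1 called lower of 9 response genes of CAR, PXR and NRF2, against 4.35%. The gene called lower was Gsta1, a glutathione transferase, which had the larger change. Gsta1 had 70.3 ± 50.9 (SD, n = 8) against 210.4 ± 88.8 (SD, n = 5). This is -1.84 on the log2 scale (SE 0.49, limma adjusted p = 0.0924). Of the same list, LNA29 gave 0 of 9 called in L-Sirt1 KO mice, against 1.87%. In rats, 0 of 5 tested were called in ZFR, against 4.25%, and 0 of 5 with BT2, against 0%. Floxed mice had 1 of 9 called, against 14.7%. This was Gstm1, which was higher (0.30 on the log2 scale, limma adjusted p = 0.163).

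After treatment means were removed, the members did not vary as 1 block among the 13 WT/Floxed mice. Over the 45 pairs of members, Pearson's r of the log2 values ran from -0.71 to 0.86 with a median of 0.16, and 12 pairs were above 0.5 and 12 below 0. In the 8 mice labelled L-Sirt1 KO it ran from -0.20 to 0.92 with a median of 0.58. Differences between floxed and WT mice were not removed, so the r values of the 13 mice hold them too. These are descriptions of libraries that share their scaling, with no test.

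For each member, the gene with the highest r over the 13 mice was picked from all other genes. A high r in those mice follows in part from that choice. Sumo2 varied most like Ces1d, with r = 0.97 over the 13 mice and 0.58 over the 8 mice labelled L-Sirt1 KO. Over the 13 mice, the values of Ces1d separated floxed from WT mice, and this difference is part of its r. Gstt3, a glutathione transferase, was nearest to Ces2c (0.94, then 0.74), F2, the gene of prothrombin, to Ces1c (0.95, then 0.92), and Cyp2b13, a cytochrome P450, to Ces1g (0.90, then 0.88). For the other 6 members the nearest genes were Lcmt1 for Ces1b, Gm14403 for Ces1e, Commd2 for Ces1f, Pmel for Ces2a, Tuba1b for Ces2e and Lgr5 for Ces3a. Their r was 0.85 to 0.94 in WT/Floxed mice and -0.71 to 0.59 in mice labelled L-Sirt1 KO, the latter value for Ces1e.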

How the data were processed

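RNA-seq of 37 livers (21 mice, 16 rats) was analysed from 4 tables. Per the paper's methods, polyA+ libraries were read as single ends of 100 bases, aligned with STAR 2.5.3a (mm10 or rn6), quantified with Salmon 0.6.0 and normalized by the authors with DESeq2 (version not given in the sources used here). The signal the authors deposited thus holds normalized counts, each table scaled by itself. Whole reads could not be recovered (65.8% to 72% of low values were whole in mice and 75.7% to 88.6% in rats, within 0.02), so no count model was fitted. Depth was the sum of a library divided by the value of 1 read, and it limits rat values at low counts.

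Entries with no name (381 in mice, 201 in rats) or a repeated name (130 and 4523) were left out. They held 0.0134% to 0.0461% and 0.0897% to 2.17% of the counts. Every column was matched to a sample.

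Genes with a mean of at least 10 were tested with limma 3.58.1 (R 4.3.3, trend) on log2(normalized count + 1), with Benjamini-Hochberg adjustment over all of them. Members and gene lists were chosen with earlier results of these data known. All 10 members were named, every other carboxylesterase, from each other list the called gene with the largest change, and for each member the gene with the highest correlation. Sequences came from RefSeq tables (GRCm38.p6) and a GRCm38 annotation with Python 3.11.15 and Biopython 1.88, and figures from matplotlib 3.10.9. The fitting step was tested on simulated data. The fits were repeated with TMM scaling, a pseudocount of 10, all genes without a minimum mean, sample quality weights, flow cell, background or replicate block as a term, repeated names summed (rats), an adjusted p under 0.05, the 4 mouse criteria for rats, LNA29 or saline mice only for the floxed comparison, transcript length and each library left out. Leaving out rat libraries under 0.25 M reads and the background response difference were added after the data were seen.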

Additional observations from a re-analysis of the deposited data

Results flagged for a closer look

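In 5 of 60 groups of member values, 1 mouse stood apart from the rest of its group by Dixon's criterion, where chance flags about 1 group in 20. Of these 5 values, 3 come from saline WT/Floxed replicate 4, a WT mouse. Its Ces2c count was 2842.8 against 1155.9 to 1567.5 in the other saline mice, its Ces3a count was 65345.8 against 55301.2 to 57173.8, and its Ces1e count was 7086.3 against 7953.6 to 8273.6. Saline WT/Floxed replicate 5, a floxed mouse, had a Ces2e count of 11692.2 against 10424.8 to 10632.6. LNA29 replicate 3 of the mice labelled L-Sirt1 KO had a Ces1g count of 22576.2 against 25391.8 to 25448.1.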

How the results depend on the processing

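Of the summary counts recomputed under the alternatives, 257 were within 1.5 times their main value or kept it and 20 moved. Of 1210 single member values, 1177 kept their side of the threshold, 19 lost the call, 13 gained it and 1 reversed. The sign changed in 42 of them, of which 41 had not been called and had log2 fold changes of at most 0.26 in size. In WT/Floxed mice, 2 members were called with LNA29, 0 at an adjusted p under 0.05 (against 206 of 15811 genes) and 1 to 2 with 1 mouse left out (against 381 to 1006 genes). In mice labelled L-Sirt1 KO, leaving out 1 mouse gave 0 to 1 called members (against 77 to 426 genes), and in ZFR against ZLR 2 to 3 (against 225 to 379). In floxed against WT mice, 2 members were called, 1 with no minimum mean (against 1817 of 29114 genes), 1 at an adjusted p under 0.05 (766 of 15811), 0 in LNA29 mice only (173 of 15778) and 1 to 3 with 1 mouse left out (1409 to 2751). For the other carboxylesterases there, 1 was called, 0 at an adjusted p under 0.05, 0 in LNA29 mice only and 0 to 1 with 1 mouse left out. The count of members with a response that differed between genotypes was 1 with sample quality weights (against 1220 of 15601 genes), and 0 to 1 with 1 mouse left out (against 0 to 233 genes). With the longest transcript as the length, 6 of 10 members kept their rank in the level order. The causes of these shifts were not tested, apart from the smaller samples and the stricter limit themselves.

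Replicate numbers did not mark pairs, since 3 of 17 same-numbered pairs had a correlation over 0.1 (-0.28 to 0.24) and 4 of 17 correlated best with their own number. With the replicate block, 0 members and 56 of 15811 genes were called in WT/Floxed mice, where Ces2c was at -0.91 and Ces2e at -0.34 on the log2 scale. In floxed against WT mice, the block gave 0 members, 0 other carboxylesterases and 0 of 15811 genes, with Ces1d at 0.69, and Ces2c reversed to a log2 fold change of 0.05 (limma adjusted p = 0.969). The planned exclusion of libraries far below the median depth of their table gave no value, since no library met its limit. Depth limits the Ces2 members in rats, which had 0 to 14 reads in the 3 shallowest libraries.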
